A study of Mus musculus with 33 samples.

Results

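The sites described here are stretches of the genome where LSD1 was listed in growing muscle precursor cells and again after those cells had become myotubes. They were chosen by overlap of the 2 deposited LSD1 peak lists: an autosomal peak of the myoblast list was called kept when it shared at least 1 bp with a peak of the myotube list. By this rule 1999 of 4419 autosomal myoblast peaks were kept (45.2%), out of 4442 peaks on all chromosomes. The other 2420 autosomal myoblast peaks had no myotube peak over them and are called lost. On the myotube side, 1890 of 16361 autosomal peaks met a myoblast peak, and 14471 did not and are called new. Because the LSD1 lists selected the sites, everything read from those lists (the number kept, the widths, the extent of overlap) is a description and was not tested.

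LSD1 (Kdm1a) is a demethylase that removes mono- and dimethyl marks from lysine 4 of histone H3 (H3K4) and works mostly within CoREST and histone deacetylase complexes. The other mapped proteins, apart from Sin3A, act on the same mark or read it. MLL1 and MLL3 write H3K4 methylation, MLL3 chiefly the monomethyl form at enhancers; Menin is a subunit of MLL1 complexes and Wdr5 a core subunit shared by the family. ING1 binds trimethylated H3K4, the mark of active promoters, and brings in the deacetylase complex built on the scaffold protein Sin3A. During muscle differentiation, proliferating myoblasts leave the cell cycle, fuse and replace one gene expression programme by another, and LSD1 is known to take part in that switch.

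All samples were C2C12 cells, an established mouse myoblast line. Proliferating myoblasts grew in medium with 10% fetal bovine serum, and myotubes were taken after 96 h, that is 4 days, in 2% horse serum. Chromatin immunoprecipitation with sequencing (ChIP-seq) gave lists for LSD1 in both states (1 list each), Menin (2 replicates), MLL1 (2), Wdr5 (3) and MLL3 (1) in myoblasts, Sin3A in myotubes (2), and ING1 in myoblasts (2) and myotubes (3). ING1 was precipitated through a Flag tag from a puromycin-selected stable C2C12 line that ectopically expressed tagged ING1 from pBabe-puro, so its lists report an added protein. For the rest, antibodies recognised the proteins themselves. Of 33 samples in all, 10 were inputs and 6 were RNA-seq libraries, none of them analysed here. The sample labels place Sin3A in myotubes, although the design text of the series speaks of myoblasts, and the samples titled MLL name Menin as their source; titles and antibodies decided the group. The labels do not state that replicates were separate cultures, so scatter between replicate lists is possibly technical. In the tests over groups below, the lists of a group were averaged first, so this scatter does not enter those p-values. The p-value for ING1 between states does rest on it.

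The lists hold peak boundaries only, so the depth behind each is unknown, and a longer list can reflect more reads as well as more binding. The pooled lists of the 6 replicated groups held 8114 to 68934 autosomal peaks, and the single MLL3 list 208538. The 14 replicate lists ran from 122 peaks to 22868, and 4 of them had fewer than 500: ING1 in myoblasts replicate 1, ING1 in myotubes replicate 3, MLL1 replicate 2 and Sin3A replicate 2. Values from these 4 lists, and the group means that include them, rest on few peaks. Chromosome X carried 23 LSD1 myoblast peaks, of which 3 met a myotube peak, and was not part of the set.

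Most kept sites also held Sin3A and ING1, the deacetylase side of the system, and they did so more often than lost sites. Sin3A of myotubes lay at 93.6% of the kept sites (exact 95% interval 92.4 to 94.6) and at 77.7% of the lost ones, against 84.9% of all autosomal LSD1 myoblast sites. ING1 of myotubes lay at 88.4% (86.9 to 89.8) and 72.9%, with 79.9% over all sites. ING1 of myoblasts lay at 79.4% (77.5 to 81.1) and 65.7%, with 71.9% over all. The differences of 15.9, 15.5 and 13.6 percentage points held their direction on 19 of 19 autosomes each. These shares are for the pooled lists, and for ING1 of myotubes 889 kept sites (44.5%) met a pooled peak but no peak of any of the 3 replicate lists. With the union of the replicate lists in its place, ING1 of myotubes lay at 44.1% of the kept sites. When pooled peaks had to be present in every replicate list, Sin3A was left at 7.55% of the kept sites. ING1 of myotubes was left at 1.50% and ING1 of myoblasts at 8.30%. Each of these groups has 1 short list. Menin and Wdr5, which have no short list, were at 76.8% and 37.5%.

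The subunits of the H3K4 methyltransferase complexes separated kept from lost sites by fewer points. Menin and Wdr5 lay at most LSD1 sites of either kind. Menin was at 94.5% of the kept sites (93.5 to 95.5) and 92.1% of the lost ones, with 93.2% over all. Wdr5 was at 91.8% (90.5 to 93.0) and 86.7%, with 89% over all. MLL1, the enzyme itself, had a shorter list and was at 40.3% (38.2 to 42.5) and 35.5%, with 37.7% over all. With the union of its replicate lists MLL1 was at 25.01% of the kept sites, and 341 kept sites (17.1%) met its pooled list and no replicate list. The pooled differences were 2.44, 5.06 and 4.78 points, and they were positive on 13, 15 and 14 of 19 autosomes. Menin and Wdr5 lay at 93.2% and 89% of all sites, and shares this high leave little room for a difference in points. As odds ratios, kept against lost, Menin had 1.48, Wdr5 1.71 and MLL1 1.23. Sin3A had 4.18, ING1 of myotubes 2.83 and ING1 of myoblasts 2.01. Whether the differences of Menin, Wdr5 and MLL1 are smaller than those of Sin3A and ING1 was not tested. Sin3A was mapped in myotubes only, and Menin, Wdr5 and MLL1 in myoblasts only. Between Sin3A and these proteins, factor and cell state therefore cannot be told apart. MLL3 did not distinguish the classes in this list: it lay at 19.5% of the kept sites (17.8 to 21.3) and 19.6% of the lost ones, with 19.6% over all, a difference of −0.077 points (95% interval −2.43 to 2.27).

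Against the new LSD1 peaks, listed in myotubes only, the kept sites stood far apart, and so did the lost sites. Of the lost myoblast sites, 77.7% met Sin3A, 72.9% ING1 of myotubes and 65.7% ING1 of myoblasts. Menin met 92.1% of the lost sites, Wdr5 86.7% and MLL1 35.5%. The contrast with new peaks is thus shared by LSD1 myoblast sites of either kind. Of the 1890 myotube peaks that cover the kept sites, 94.8% met Sin3A. Of the 14471 new peaks 16.2% did, and of all LSD1 myotube peaks 25.3%. For ING1 of myotubes the shares were 90.3% and 13.0% (22% of all), and for ING1 of myoblasts 81.4% and 10.7% (18.9% of all). Menin met 94.97% of kept peaks and 36.6% of new ones (43.4% of all), Wdr5 92.01% and 20.5% (28.8% of all), and MLL1 42.6% and 6.90% (11% of all). For these 6 lists the kept peaks had the higher share on every one of the 19 autosomes. MLL3 lay at 21.6% of the kept peaks and 26.2% of the new ones (25.6% of all), a difference of −4.58 points (95% interval −6.56 to −2.59), and was lower at kept peaks on 16 of 19 autosomes. Lost myoblast sites met MLL3 in 19.6% of cases, also below the new peaks.

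**Figure D1:**
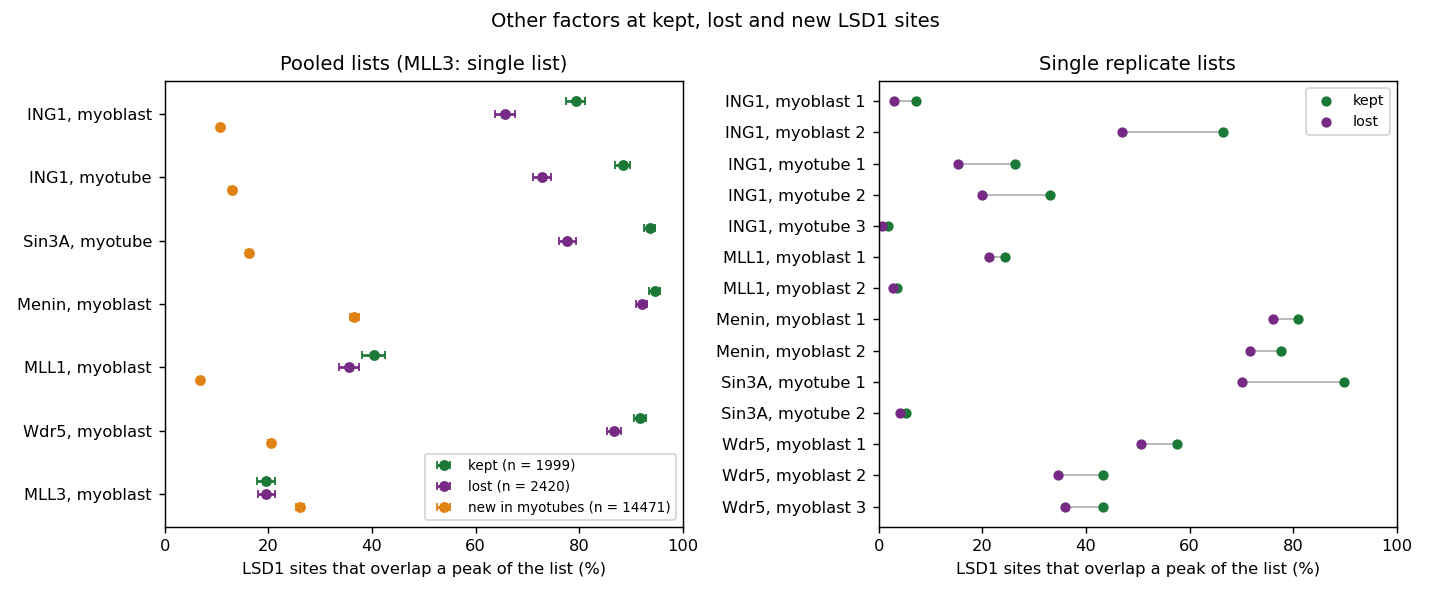
Left, percent of kept (green, n = 1999), lost (purple, n = 2420) and new (orange, n = 14471) LSD1 sites that overlap a peak of each pooled list, or of the single MLL3 list; bars are exact 95% intervals and cover counting error only. Right, the same percent for kept and lost sites in each of the 14 replicate lists, where every kept value lies to the right of its lost value.

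Single replicate lists gave the tests of both differences. Sin3A replicate 1 met 89.8% of the kept sites and 70.0% of the lost ones, and its replicate 2, a short list of 426 autosomal peaks, met 5.30% and 4.09%. ING1 of myoblasts met 7.15% (a short list) and 66.4% of the kept sites in replicates 1 and 2, and 2.93% and 46.9% of the lost ones. ING1 of myotubes met 26.4%, 33.1% and 1.85% (a short list) of the kept sites in replicates 1 to 3, and 15.3%, 20.04% and 0.661% of the lost ones. The short lists met few sites of either class, but within each of these lists the kept share was the higher one. Menin met 80.9% and 77.6% of the kept sites and 76.2% and 71.7% of the lost ones. Wdr5 met 57.6%, 43.4% and 43.2%, and 50.7%, 34.6% and 36.0%. MLL1 met 24.5% and 3.55%, and 21.3% and 2.77%, the lower value of each pair from its short replicate 2. In all 14 lists the kept share exceeded the lost share, by 0.783 points (MLL1 replicate 2) to 19.8 points (Sin3A replicate 1).

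Averaged over the lists of each group, the kept share was higher by 11.9 points ± 10.8 for ING1 of myoblasts (SD, n = 2 lists), 10.51 ± 13.1 for Sin3A (n = 2) and 8.43 ± 6.35 for ING1 of myotubes (n = 3). It was higher by 7.65 points ± 0.997 for Wdr5 (n = 3), 5.29 ± 0.792 for Menin (n = 2) and 1.98 ± 1.70 for MLL1 (n = 2). Each group other than Wdr5 and Menin includes 1 of the 4 short lists. Over the 6 group means the difference was 7.62 points ± 3.59 (SD, n = 6), positive in 6 of 6 groups (exact two-sided sign-flip permutation test, p = 0.03125, the smallest that 6 groups allow). Kept peaks exceeded new ones by 36.9 points ± 18.5, again in 6 of 6 groups and in all 14 lists (same exact test, p = 0.03125). With the pooled lists this second difference was 65.3 points. The 6 values come from the same sites, and so they are not independent in the regions they sample. The groups are also related: ING1 enters in both states, and Menin, MLL1 and Wdr5 share complexes. Both p-values treat the 6 groups as independent units and are limited by this.

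Width moved with this result. Kept sites had a median width of 432 bp in myoblasts and lost ones of 371 bp, and in myotubes kept peaks had 719 bp and new ones 616 bp. The share of sites that were kept went from 37.1% (33.9 to 40.4) in the narrowest of 5 classes, 54 to 271 bp, to 60.9% (57.6 to 64.1) in the widest, 584 to 1707 bp. Within 10 classes of width the difference between kept and lost sites over the 6 groups was 6.23 points, against 7.62 without classes, and was positive in 6 of 6 groups. For the pooled lists the differences within classes of width were 13.9 points for Sin3A, 13.5 for ING1 of myotubes and 11.1 for ING1 of myoblasts.

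Turned around, the presence of a factor sorted the myoblast sites by how often they were kept. Sites with Sin3A were kept in 49.9% of cases (48.3 to 51.5) and the 667 sites without it in 19.2% (16.3 to 22.4). With and without ING1 of myotubes the shares were 50.1% and 26.1%, and with and without ING1 of myoblasts 49.9% and 33.2%. Wdr5 divided the sites into 46.6% and 33.8%, Menin into 45.9% and 36.3%, and MLL1 into 48.4% and 43.3%. MLL3 left them at 45.1% with it and 45.3% without. Sites that lacked Sin3A were narrower (median 333 bp against 404 bp). Classes of width left 13.9 of the 15.9 points between kept and lost sites in the share with Sin3A.

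Sin3A and ING1 together marked sites kept more often than either did alone. Of 3209 sites with both in myotubes, 52.9% were kept (51.1 to 54.6). Of 543 sites with Sin3A and no ING1 of myotubes, 32.0% were kept (28.1 to 36.2), and of 321 with ING1 and no Sin3A, 21.8% (17.4 to 26.7). Of 346 with neither, 16.8% were kept (13.0 to 21.1). The pair was present at 1697 kept sites (84.9%) and at 1512 lost ones (62.5%). The sites with both were also the widest of the 4 classes, at a median of 415 bp against 325 bp for neither, and had Wdr5 at 92.5% against 68.8%.

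In the pooled lists, the state in which ING1 was listed ordered the sites as well. These classes are not all backed by replicate lists. At 889 kept sites (44.5%) ING1 of myotubes was in its pooled list and in no replicate list. For ING1 of myoblasts this held at 332 kept sites (16.6%). Sites with ING1 in both states were kept in 53.4% of cases (51.5 to 55.3, 2722 sites), those with ING1 in myotubes only in 38.7% (35.4 to 42.2, 808 sites), those with ING1 in myoblasts only in 29.2% (25.03 to 33.6, 456 sites) and those with ING1 in neither in 22.9% (18.99 to 27.1, 433 sites). Within the sites that also had Sin3A the order was 55.3%, 43.7%, 32.9% and 31.0%, where the intervals of the last pair (27.6 to 38.5 and 25.2 to 37.2) overlap. Without Sin3A it was 27.2%, 14.6%, 21.9% and 12.6%. Here ING1 in myoblasts only (34 of 155 sites, 15.7 to 29.3) stood above ING1 in myotubes only (20 of 137, 9.15 to 21.6). The intervals of this pair overlap too. Among narrow sites, those of 392 bp or less, the 4 shares were 47.0%, 34.2%, 27.9% and 20.4%, and among wider ones 58.4%, 44.5%, 30.9% and 28.4%. ING1 in both states accounted for 72.7% of the kept sites and 52.4% of the lost ones.

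ING1 itself could not be shown to differ between the states at kept sites. In the pooled lists it lay at more of them in myotubes than in myoblasts (88.4% and 79.4%), whereas the replicate lists went the other way, with 36.8% ± 41.9 (SD, n = 2) in myoblasts and 20.4% ± 16.4 (n = 3) in myotubes, each mean including 1 short list. The difference of −16.3 points had an exact two-sided permutation p of 0.6, where 0.2 is the smallest that 2 lists against 3 can give. The 2 groups overlapped, from 7.15% to 66.4% and from 1.85% to 33.1%. Leaving out myoblast replicate 2 turned the difference to 13.3 points. When all 5 lists were reduced to their 122 widest peaks, the length of the shortest, they met 2.65% and 4.70% of the kept sites in myoblasts and 3.502%, 3.75% and 1.85% in myotubes, a difference of −0.642 points.

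Counting how many of the 7 factor lists met a site summarised these patterns. Of the 15 sites with no other factor, 2 were kept (13.3%, 1.66 to 40.5), and of 58 sites with 1 factor, 4 were kept (6.90%). The share kept was 19.3% at 2 lists, 30.5% at 3, 36.7% at 4, 49.7% at 5 and 54.5% at 6, and 64.8% (56.9 to 72.1) at the 162 sites met by all 7. Sites with more factors were wider, from a median of 305 bp at 2 lists to 512.5 bp at 7. In narrow sites the share kept went from 15.3% at 2 lists to 53.7% at 7, and in wide ones from 30% to 70.4%. At least 5 of the lists met 1514 kept sites (75.7%) and 1368 lost ones (56.5%).

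**Figure D2:**
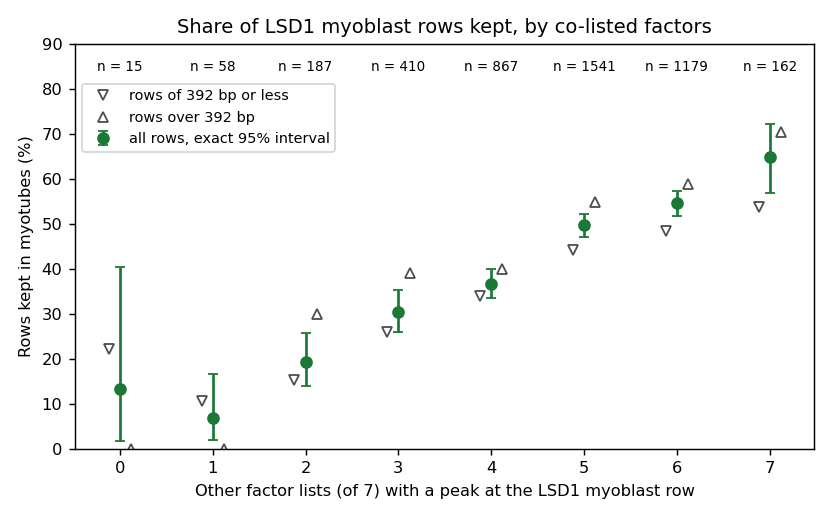
Percent of LSD1 myoblast sites that were kept (y axis) by the number of the 7 other factor lists with a peak at the site (x axis); green points are all sites with exact 95% intervals, triangles the narrower and wider sites, and n the number of sites. From 2 lists to 7 the share climbs in both width classes, to 64.8% over all sites at 7.

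A few combinations of factors made up most of the kept sites. ING1 in both states, Sin3A, Menin and Wdr5, without MLL1 or MLL3, was the commonest, at 545 kept sites (27.3%) and 464 lost ones (19.2%). The same 5 with MLL1 were found at 475 kept (23.8%) and 372 lost sites (15.4%), and all 7 at 105 kept (5.25%) and 57 lost sites (2.36%). Those 5 lists, with or without the other two, met 1266 kept sites (63.3%, 61.2 to 65.4) and 1018 lost ones (42.1%, 40.1 to 44.1). In all, 75 of 128 possible combinations occurred among the kept sites. The 390 kept sites with MLL3 were wider than the other 1609 (482.5 bp against 421 bp) and had slightly lower shares of Sin3A (90% against 94.5%) and MLL1 (36.7% against 41.2%), differences that were not tested.

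Support from single replicate lists was broader at kept sites too. Kept sites met a median of 6 of the 14 replicate lists and lost sites 4. At least 10 lists met 78 kept sites (3.90%) and 43 lost ones (1.78%), and no list met 7 kept sites (0.350%) and 57 lost ones (2.36%). The kept site that met most lists, chr3:68809309-68809499 (coordinates of mouse build mm9, as are all below), is only 191 bp wide, met 13 lists, all but ING1 of myotubes replicate 3, and lay inside an 829 bp LSD1 peak of myotubes. The next were chr2:32817326-32818203 and chr17:35378919-35379374 with 12 lists each. The first of this pair overlapped its myotube peak by 40 bp of its 878 bp, and the second lay wholly within a myotube peak of 3839 bp.

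Most kept sites were wider in myotubes than in myoblasts. The myotube peaks had a median of 1.70 times the width of the myoblast site (5th to 95th percentile 0.685 to 5.92), and 1685 of 1999 sites (84.3%) were wider in myotubes. Peaks of the myotube list were wider in general, with a median of 627 bp over all autosomal peaks against 392 bp in the myoblast list. The ratio depended on the starting width: it was 3.53 in the narrowest of the 5 classes of myoblast sites and 1.13 in the widest, while the myotube widths varied little between classes (medians 696.5 to 841 bp). It hardly differed by factor, at 1.61 for kept sites with MLL3 and 1.73 for those without, and 1.69 with Sin3A and 1.82 without.

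**Figure D3:**
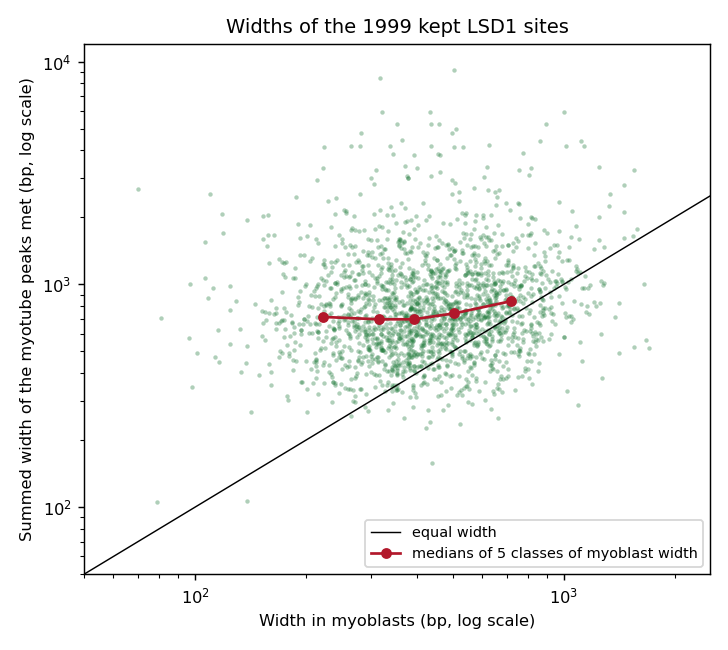
Width of each of the 1999 kept sites in myoblasts (x axis) against the summed width of the myotube peaks it met (y axis), both in bp on log scales; the black line marks equal width and the red points the medians of 5 classes of myoblast width. The red points stay between 696.5 and 841 bp while the myoblast width grows, so narrow sites lie farthest above the line.

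Overlap was usually extensive. Of the kept sites, 912 (45.6%) lay wholly inside a myotube peak, 102 (5.10%) wholly contained one, and 985 (49.3%) overlapped in part. Myotube peaks covered a median of 96.2% of a site, at least 50% of 1746 sites (87.3%) and under 10% of 31 sites (1.55%). The centres of the LSD1 peaks of both states lay a median of 162 bp apart. Only 30 kept sites met 2 myotube peaks, while 124 myotube peaks spanned 2 to 5 myoblast sites. At the edge of the rule, chr2:80421444-80421750 was kept by 1 bp of overlap, chr11:3352643-3353001 by 2 bp and chr18:46902138-46902274 by 3 bp. On the other side, the lost site chr17:33821265-33821652 directly abutted a myotube peak with 0 bp between them, and chr9:3012740-3012823 and chr2:27742844-27743570 were 2 and 3 bp away. Within 25 bp of the boundary there were 21 kept and 22 lost sites.

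Around the kept sites Sin3A, ING1 and MLL1 were more narrowly centred than Menin and Wdr5. Sin3A peaks covered 87.9% of kept site centres, 25.6% of positions 1000 bp away and 5.10% at 2000 bp. ING1 of myotubes covered 81.0%, 21.4% and 3.88% at these distances, and MLL1 33.6%, 11.8% and 4.13%. Menin reached farther, with 92.8% at the centre, 70.7% at 1000 bp and 43.3% at 2000 bp, and Wdr5 lay between, with 87.6%, 42.7% and 12.0%. The median distance from the centre of the site to the centre of the factor peak over it was 183.5 bp for ING1 of myotubes, 195 bp for ING1 of myoblasts, 210 bp for Sin3A, 218 bp for MLL1, 308.5 bp for Wdr5, 423.5 bp for Menin and 443.5 bp for MLL3. The factor peaks met had median widths of 921 bp for MLL1, 996 bp for ING1 of myotubes, 1169 bp for Sin3A, 1697 bp for Wdr5 and 2733 bp for Menin.

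MLL3 was not centred on the kept sites. It covered 15.5% of their centres, 12.3% of positions 500 bp away, 16.4% at 1000 bp and 17.8% at 5000 bp, so the sites themselves were covered about as often as their surroundings. At lost sites MLL3 covered 16.7% of centres and 13.2% at 1000 bp, and at new sites 22.3% and 18.9%. At 10000 bp the 3 classes had 16.6%, 15.9% and 16.9%. For Sin3A, by comparison, the cover at 10000 bp was 1.33% around kept sites, 1.18% around lost ones and 2.72% around new ones.

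**Figure D4:**
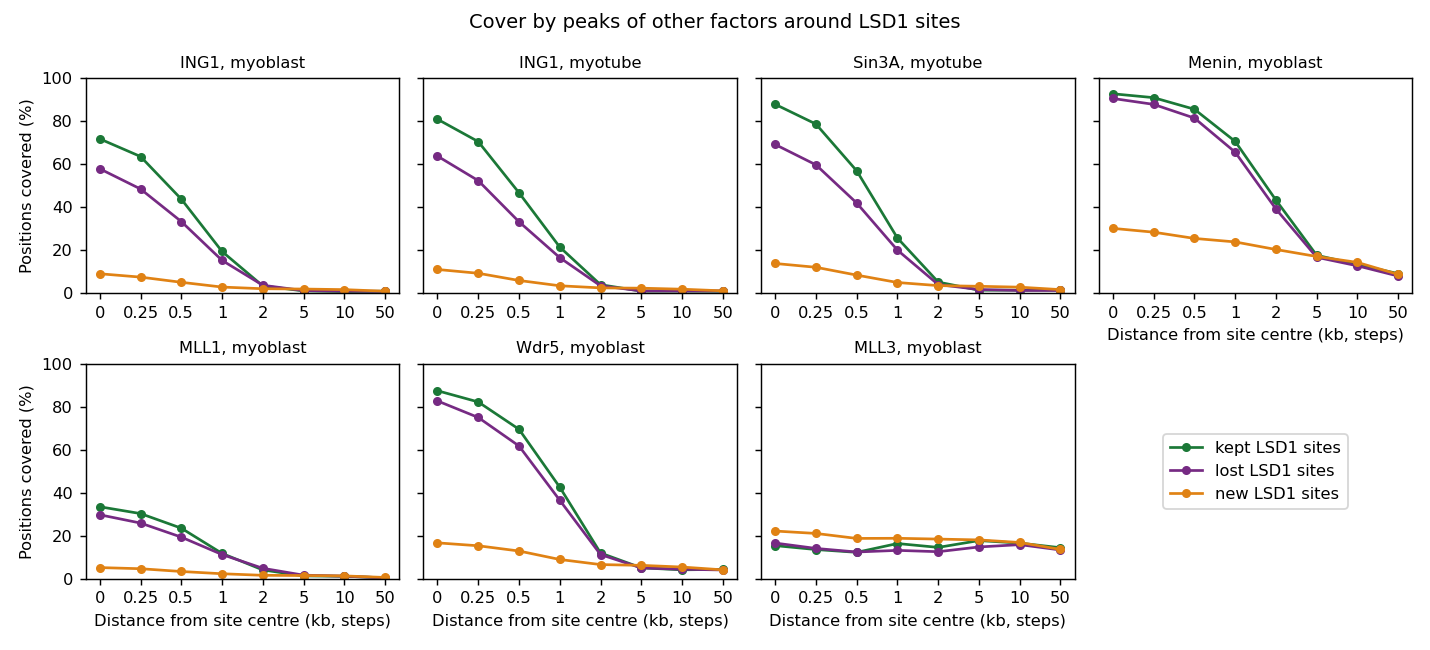
Percent of positions covered by peaks of each factor (y axis) at the centre of LSD1 sites and at 7 distances up to 50 kb on both sides (x axis, unequal steps), for kept, lost and new sites. ING1, Sin3A, Menin, MLL1 and Wdr5 peak at the centres of kept and lost sites, and MLL3 stays between 12.3% and 17.8% around kept sites.

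The 5 widest kept sites show how these layouts look in single regions. They were picked by myoblast width and are not typical in their change of width. Of all kept sites 84.3% were wider in myotubes, and of those in the widest of 5 classes 61.0%. The widest, chr2:13496618-13498324, spans 1707 bp, met all 7 pooled or single factor lists and in them was fully covered by Menin, Wdr5 and MLL3. This site met no replicate list of MLL1, only replicate 3 of Wdr5 and only replicate 1 of ING1 of myotubes. Its LSD1 peak in myotubes was only 520 bp, 0.305 times as wide, and lay inside it. The site chr13:29043537-29045205 (1669 bp) met 11 of 14 replicate lists, was fully covered by ING1 of both states, Menin, MLL1 and Wdr5, held no MLL3 and had a myotube LSD1 peak of 562 bp over 32.0% of it. Among these sites chr11:58790613-58792188 (1576 bp) was the one whose LSD1 peak stayed as wide, with a myotube peak of 1780 bp over all of it, yet none of the 3 ING1 replicate lists of myotubes met it although the pooled list covered 69.1% of it. The other wide sites, chr6:86798676-86800325 and chr6:51417943-51419497, had 58.3% and 17.8% of their length covered by LSD1 in myotubes.

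**Figure D5:**
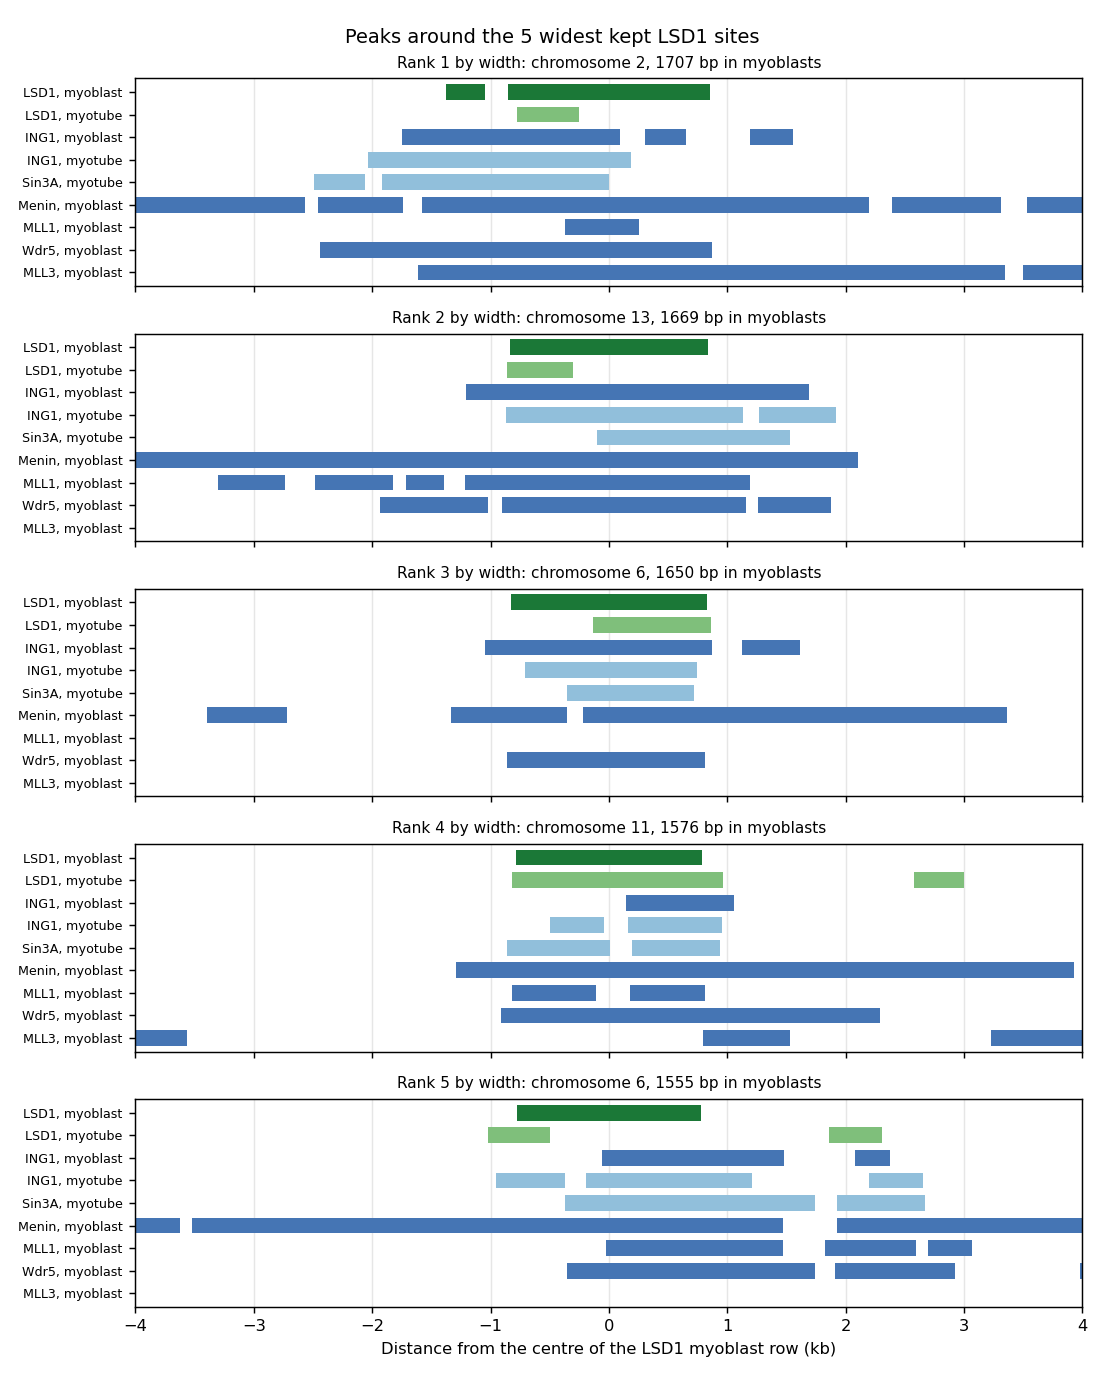
Peaks within 4 kb of the centre of each of the 5 widest kept LSD1 sites (x axis, distance in kb), one line per list: LSD1 in green, myoblast lists of other factors in dark blue and myotube lists in light blue. Menin and Wdr5 cover most of each site, and in 4 of the 5 regions the LSD1 myotube peak is shorter than the myoblast one.

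Sites chosen by the other naming rules show the extremes. The largest gain in width was at chr9:3030147-3030216, 70 bp in myoblasts and overlapped by 62 bp of a 2690 bp myotube peak, 38.4 times as wide; of the other pooled or single lists only MLL1 and MLL3 met it, but so did 7 replicate lists, among them 2 of Sin3A and 2 of Wdr5. The next were chr15:76025884-76026201, 318 bp inside a myotube peak of 8456 bp, and chr8:87185220-87185329, 110 bp inside one of 2535 bp. In the pooled lists both had Sin3A, ING1 of myotubes, Menin and Wdr5. Of the replicate lists, however, the chromosome 15 site met only ING1 of myoblasts replicate 2 and Menin replicate 1. The chromosome 8 site met at least 1 replicate list of each of these factors. The largest loss of width was at chr3:104442914-104444003, from 1090 bp to 287 bp (0.263 times), followed by chr1:164669435-164670705, from 1271 bp to 378 bp. The site chr3:95463051-95464373 met 2 myotube peaks and had every factor except MLL3. Besides the widest site, the largest sites fully covered by MLL3 were chr6:42301692-42303104, which LSD1 of myotubes overlapped by 19 bp of 1413 bp, and chr11:55232040-55233450, which lacked Sin3A.

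Only 2 kept sites met none of the 7 factor lists, chr7:17579434-17579698 (265 bp, wholly inside a 374 bp myotube peak) and chr12:3109914-3110051 (138 bp, overlapping a 107 bp myotube peak by 58 bp). Each of them nevertheless met 1 replicate list of Menin, replicate 2 for the first and replicate 1 for the second, so that neither was free of every deposited peak. Among the lost sites 16 met none of the 6 lists other than MLL3 (0.661%), and among the kept sites 2 did (0.0121% to 0.361%, exact 95% interval).

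Kept sites were spread over every autosome. The share kept ran from 32.5% on chromosome 16 (24.0 to 41.9, 37 of 114 sites) to 53.6% on chromosome 10 (47.2 to 59.9, 135 of 252), with a median of 45.4% over the 19 chromosomes. Chromosome 11 had the largest number, 228, which is 11.4% of all kept sites and 50.6% of its own 451 myoblast sites. Sin3A lay at 82.95% (chromosome 9) to 100% (chromosome 18) of the kept sites of a chromosome, ING1 of myotubes at 78.4% to 95.5%, and MLL3 at 5.41% (chromosome 16) to 31.3% (chromosome 15).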

How the data were processed

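The deposited files hold peak boundaries (chromosome, left and right end, with no count, height or p-value), per the file headers; how peaks were called, at which threshold, and how replicates were pooled is not given in the sources used here. Bowtie 0.12.9, SAMtools 0.1.19, bedtools 2.17.0 and the builds mm9 and NCBIM37 are named in the submitters' processing notes. Coordinates are those of the files, with 1 added to left ends, and the largest on chromosome 1 in the LSD1 lists was 197068282. Pooled lists are the authors' own; each factor was taken from its pooled list, and MLL3 from its single list. A genome or annotation of this build was not used here, so no gene or sequence is named.

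Sites were joined to lists on chromosomes 1 to 19 by an overlap of at least 1 bp (Python 3.11.15, numpy 2.4.6), and the overlaps were checked with bedtools 2.31.1 and tested on simulated lists. Exact intervals are binomial at 95% (scipy 1.17.1) and cover counting error only; intervals of differences are normal approximations over sites. Per-list differences were averaged by group and tested over 6 groups by an exact sign-flip permutation (64 assignments), and ING1 between states by an exact permutation over 10 arrangements, both two-sided. Narrow and wide sites were split at the median width of 392 bp. Named sites were the 5 widest, the 3 with the largest and the 3 with the smallest width ratio, the one with most myotube peaks, the 5 widest with no other factor (2 existed), the 5 met by most replicate lists, the 3 of at least 500 bp with the largest MLL3 cover, ties going to the wider, and the 3 kept and 3 lost sites nearest the edge of the rule. The sites, lists and tests were chosen with earlier results of these data known. Alternatives were other overlap rules, shorter or wider LSD1 peaks only, unions of replicates, classes of width, odds ratios and leaving out each replicate. Figures were drawn with matplotlib 3.10.9.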

Additional observations from a re-analysis of the deposited data

Results flagged for a closer look

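One result went against the others. Kept LSD1 peaks of myotubes met MLL3 less often than new ones did, by −4.58 points in the single MLL3 list, while in all 14 replicate lists of ING1, Sin3A, Menin, MLL1 and Wdr5 the kept peaks had the higher share. It is given here because the direction is opposite in every one of those lists. Lost myoblast sites met MLL3 in 19.6% of cases, also less often than the 26.2% of new peaks. The lower share is thus not particular to kept sites. The difference between MLL3 and the other factors was not tested, since MLL3 has 1 list and no replicate. No group has 4 or more replicate lists, so no single list was set against its group.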

How the results depend on the processing

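The difference between kept and lost sites over the 6 groups, 7.62 points, kept its sign in 6 of 6 groups under all 24 alternatives. Its exact sign-flip p stayed at 0.03125, which is returned whenever all 6 means are positive, whatever their size. Since all 14 lists had the higher kept share, leaving lists out could change neither sign nor p, here or against new peaks. The difference ran from 6.07 to 9.17 points with 1 replicate left out and from 6.23 to 9.56 under the other settings in points. It was 11.3 points without the 4 lists of under 500 peaks, a setting chosen after list lengths were seen, and 0.79 as a log2 odds ratio. The difference between kept and new peaks, 36.9 points, also held under 24 alternatives: 30.9 to 43.0 with 1 replicate left out, 33.8 to 65.3 otherwise, 50.7 without the 4 short lists and 4.04 as a log2 odds ratio. The ING1 difference between states, −16.3 points, ran from −46.0 without myoblast replicate 1 to 13.3 without myoblast replicate 2, where it reversed; the cause was not tested. It was −7.05 points without myotube replicate 3, −0.642 with lists of equal length and −36.7 without the 2 short ING1 lists. With the replicate number as a block it was −7.05 points (exact p = 1, smallest 0.5). Deviations of same-numbered lists from their group means correlated at −0.0184 and 0.0411 over sites. With 2 myoblast lists these deviations mirror each other, so the correlations cannot settle whether the replicate numbers give a pairing.

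The median share of kept sites over the 7 factor lists, 88.4%, was 88.9% when 50% of the shorter LSD1 peak had to overlap (1794 sites kept). It was 85.9% with LSD1 peaks within 500 bp (2329 kept), 91.4% with the myotube list shortened to the length of the myoblast list (768 kept) and 93.0% with the wider 50% of each LSD1 list (789 kept). It was 82.1% when 50% of the shorter factor peak had to overlap and 92.5% when a factor peak had only to lie within 500 bp. Unions of the replicates gave 67.2%, and pooled peaks present in every replicate list 8.30%. A short list limits how many peaks the last setting can leave. Wdr5, whose shortest list held 4981 peaks, also fell, from 91.8% to 37.5%. By factor this setting gave 76.8% for Menin, 8.30% for ING1 of myoblasts and 7.55% for Sin3A. It gave 3.85% for MLL1 and 1.50% for ING1 of myotubes. It does not apply to MLL3, which has 1 list and entered the median unchanged. LSD1 has 1 list per state, so the set itself has no replicate check, and these lists do not tell absence from signal below the peak threshold. Depth is unknown for every list.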

Other observations

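Some kept and lost sites were neighbours. Joining LSD1 myoblast sites that lay within 1000 bp of each other gave 510 groups of at least 2 sites, of which 144 were kept whole, 194 were lost whole and 172 held both kinds. Sites in such groups were kept in 45.7% of cases and solitary sites in 45.1%. Within the 172 mixed groups, the 185 kept sites met ING1 of myotubes in 90.3% of cases and the 181 lost sites in 73.5%, and Sin3A in 90.3% and 76.8%. ING1 of myoblasts lay at 84.3% and 67.96% and Wdr5 at 94.6% and 83.4%. Menin lay at 97.8% and 98.3%, MLL1 at 44.3% and 42.5% and MLL3 at 27.6% and 25.4%. The kept sites of these groups were wider, at a median of 444 bp against 344 bp, and the part of width in these values was not tested.

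Lost sites lay at very different distances from LSD1 of myotubes. The median gap was 19701.5 bp, yet 330 lost sites (13.6%) were within 500 bp of a myotube peak. Those 330 met ING1 of myotubes in 70.9% of cases and Sin3A in 78.8%, and the 1458 lost sites beyond 10000 bp in 71.2% and 76.1%, so near and far lost sites had similar shares, all below those of kept sites.

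MLL3 peaks that met an LSD1 site had their centres farther off at kept sites, by a median of 443.5 bp (390 sites), than at lost ones, by 290.75 bp (474 sites). The MLL3 peaks met were wider at kept sites (1338.5 bp against 1106 bp). This difference was not tested.

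The first 3.2 Mb of the autosomes, where listed positions begin at 3.00 Mb, held 18 LSD1 myoblast sites, of which 12 were kept, on 5 chromosomes. The myotube list had 93 autosomal peaks there. The kept site with the largest gain in width and one of the 2 kept sites that met none of the 7 pooled or single factor lists are among these 12, whose median width in myoblasts was 303.5 bp. Values at these sites were not analysed apart from the rest.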
